A study of Rattus norvegicus with 176 samples.

Results

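The livers of rats labelled DEN at the time -8 were compared with those of the control rats labelled CtrlDEN at the same time. DEN is the field's abbreviation for diethylnitrosamine, a liver carcinogen. The arrays were picked by group label alone, 5 DEN and 5 control rats, or 10 of the 176 arrays of the series, with no measured value used to choose arrays. The comparison and the gene lists below were chosen with earlier results of these data known. The series is a long-term study of clofibric acid, a fibrate drug, in F344 rats, an inbred strain. Total RNA of liver sections was hybridized to Affymetrix arrays with 15922 probe sets, and the sections without a further tag fell into 30 groups. The groups used besides those of -8 were DEN rats and control rats (Ctrl), and rats of the groups DEN-Clo and Clo, taken here as clofibric acid with and without DEN, 5 rats each at 5j, 1m, 3m, 9m and 12m. The sample titles name 5000 ppm clofibric acid for every array, also for rats labelled control or DEN, so treatment was taken from the group names. The labels give no unit for -8, no spelling of j, and no DEN dose, route, sex or age, and nothing in them says how long before sampling DEN was given.

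Diethylnitrosamine is turned by liver cytochrome P450 enzymes, chiefly Cyp2e1 of hepatocytes around the central vein, into a reactive species that ethylates DNA. Alkyl groups at the O6 position of guanine are taken off by the suicide enzyme Mgmt, other base damage goes through excision repair, and strand breaks are joined by non-homologous end joining. DNA damage also stabilizes the transcription factor p53, whose targets halt the cell cycle (Cdkn1a), restrain p53 itself (Mdm2, Ccng1) or promote cell death.

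The 10 arrays carried liver RNA: albumin averaged 18940 in DEN rats and 17850 in controls, and 0 of 13 tested hepatocyte markers passed between the groups. Array medians of the deposited intensity ran from 68.5 to 111 in DEN rats and from 50.6 to 151 in controls (exact permutation test of the means, two-sided, p = 0.325). Each array was scaled to a common median, so signals are relative to the median probe set. Control rat 4002 had the dimmest array and the highest 3'/5' signal ratio of the actin control probes, 2.24, and DEN rat 4049 was the 1 array of the 10 without a suffix B that the labels do not explain. The actin ratio averaged 1.34 ± 0.32 in DEN rats and 1.72 ± 0.33 in controls (SD, n = 5 each, exact permutation p = 0.103).

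Few probe sets passed the test at -8, and those with the largest differences were increases. Of 12393 probe sets tested, 38 were called at an adjusted p below 0.05 in limma (0.307%), 15 of them higher and 23 lower in DEN rats. At an unadjusted p below 0.05 there were 1557 (12.6%), and by 1 probe set a gene 222 of 8733 genes were higher (2.54%) and 870 lower (9.96%). Quantile normalization in place of median scaling gave the same total with 24 higher and 14 lower, but not the same probe sets. Of the 38 calls 26 were among them, all 15 increases and 11 of the 23 decreases. Without scaling 5 probe sets were called, all of them increases (the shared probe set of Abcb1a and Abcb1b, Aldh1a1, Lama5, Vxn and Nhej1), while the calls of Mgmt (adjusted p = 0.43), Ccng1 (0.13), Cdkn1a and Ephx1 (0.65 each) were lost. The 38 probe sets stood for 30 genes by name, with 1 further probe set assigned to a pair of genes and 6 to none. By 1 probe set a gene, 11 of the 8733 rose (0.126%) and 16 fell (0.183%). The signals of both groups did not overlap in 21 of the 38 called probe sets, while 2.19% of all tested probe sets were without overlap. The labels do not say whether the rats were housed or processed together, so the p-values measure only the spread between animals as sampled. That spread was pooled over all groups of sections without a further tag, and was not that of these 10 rats alone. With only the 10 arrays 11 probe sets were called, and 8 of the 38 were among them, all of them increases. Within the arrays with suffix B, which leaves 4 DEN rats, 54 probe sets were called (19 higher, 35 lower), and 27 of the 38 were among them. With both rat 4049 and rat 4002 left out 24 were called, 12 in each direction.

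The largest increase came from a probe set that the array annotation assigns to both Abcb1a and Abcb1b, genes of the multidrug efflux pump P-glycoprotein. Its scaled signal was 769, 651, 963, 789 and 879 in DEN rats 4048, 4049, 4050, 4051 and 4052, against 111, 82.3, 66.4, 60.7 and 83.0 in control rats 4002, 4003, 4004, 4005 and 4001, the order used for all values by rat. The dimmest DEN rat was thus several times above the brightest control. The log2 fold change was 2.99 ± 0.24 (7.95-fold, adjusted p = 3.1e-19 in limma; ± is the standard error here and for every log2 fold change). It cannot be given to 1 of the genes, but probe sets annotated to Abcb1a alone, on chromosome 4, did not pass. They averaged 53.7 ± 15.7 and 87.7 ± 24.0 in DEN rats and 46.2 ± 16.7 and 80.9 ± 14.8 in controls (SD, n = 5 each), with log2 fold changes of 0.16 ± 0.28 and 0.07 ± 0.21.

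Aldh1a1, a cytosolic aldehyde dehydrogenase that also makes retinoic acid, rose by 2.86 ± 0.29 on the log2 scale (7.27-fold, adjusted p = 3.1e-13 in limma). Its signal was 2965, 2186, 3350, 2424 and 1998 in DEN rats, against 751, 294, 173, 168 and 551 in controls, again without overlap. It was the 1 of 21 tested aldehyde dehydrogenase and retinoid genes to pass, and the list's median log2 fold change was -0.09, beside -0.07 over all genes. Aldh1a1 is listed here as a pericentral gene too, and 0 of the other 13 pericentral genes passed. Over all genes 0.126% rose and 0.183% fell. Of the 14 pericentral genes 7 lay above 0, with a list median of -0.04. Among those below 0, Oat stood at -0.96 ± 0.33 (adjusted p = 0.19) and Cyp1a2 at -0.48 ± 0.26 (adjusted p = 0.42).

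Ephx1, the microsomal epoxide hydrolase, rose 1.98-fold (log2 0.99 ± 0.14, adjusted p = 3.9e-07 in limma). DEN rats had signals of 4619, 3203, 5131, 4106 and 4079, and controls had 2151, 2071, 2211, 1782 and 2291. Ephx1 is counted among targets of the oxidative stress factor NRF2, and it was the 1 of 20 tested genes of that list to rise, with 0 falling and a list median of 0.00. Akr7a3, an aflatoxin aldehyde reductase of the same list, had 1915, 427, 2014, 659 and 583 in DEN rats and 567, 304, 545, 422 and 473 in controls. The rise was thus carried by rats 4048 and 4050, and the gene did not pass (0.98 ± 0.29, adjusted p = 0.11). The metallothionein Mt2A pointed the other way, at 3029 ± 387 in DEN rats and 6154 ± 1803 in controls (SD, n = 5 each), without overlap and without passing (-0.98 ± 0.32, adjusted p = 0.18). None of 19 glutathione S-transferases and none of 23 drug-metabolising P450 genes passed, and Cyp2e1, which activates DEN, stood at 0.13 ± 0.19. Beside the counts of these lists, 0.126% of all genes rose and 0.183% fell.

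**Figure D1:**
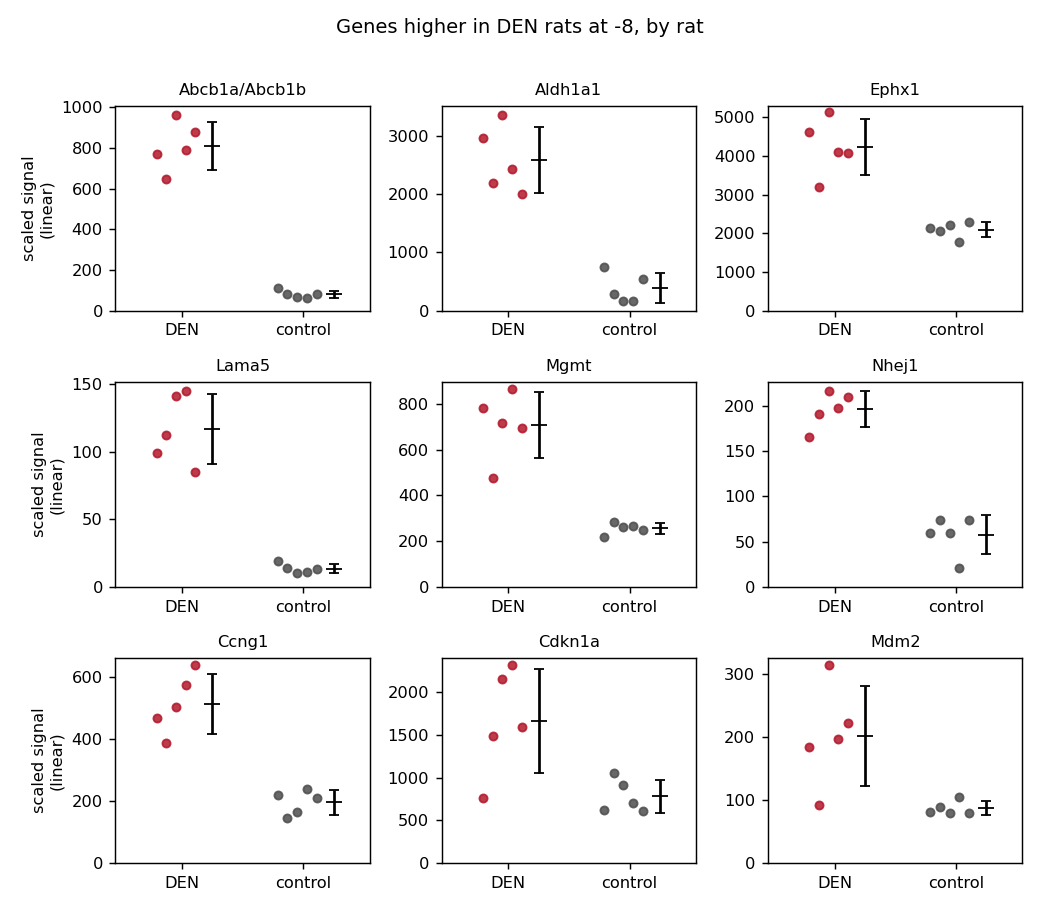
Scaled signal (linear, from 0) of each rat at -8 for 9 probe sets called higher, DEN rats in red and control rats in grey, with mean and SD of 5 rats in black. The groups are apart in the panels of the probe set shared by Abcb1a and Abcb1b, Aldh1a1, Ephx1, Lama5, Mgmt, Nhej1 and Ccng1, and meet in those of Cdkn1a and Mdm2.

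Within DNA repair, 1 gene each of direct reversal and of end joining rose. Mgmt, the O6-alkylguanine methyltransferase, had signals of 784, 476, 718, 864 and 695 in DEN rats, against 220, 283, 264, 268 and 250 in controls. No control reached the lowest DEN rat, 4049, and the log2 fold change was 1.36 ± 0.17 (2.56-fold, adjusted p = 2.8e-09 in limma). Mgmt was the 1 of 16 tested genes of direct reversal and base excision repair to pass, while 0.126% of all genes rose and 0.183% fell. The list's next smallest p-values belonged to the oxidative demethylase Alkbh2 (-0.37 ± 0.18) and the uracil glycosylase Ung (-0.31 ± 0.15), both with adjusted p of 0.38 or more.

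Nhej1, the end-joining factor XLF that helps DNA ligase IV seal breaks, rose by 1.47 ± 0.16 on the log2 scale (2.76-fold, adjusted p = 3.4e-12 in limma). Its signal was 165, 191, 217, 197 and 210 in DEN rats, against 59.5, 74.2, 59.6, 20.8 and 74.4 in controls, where rat 4005 was well under the other 4. Its partners did not pass. Xrcc4 stood at -0.07, Xrcc5 and Xrcc6, the subunits of the Ku end-binding complex, at 0.07 and -0.01, and ligase IV (Lig4) at -0.63 ± 0.29 with an adjusted p of 0.33. Nhej1 was the 1 of 14 tested genes of break repair and checkpoint kinases to rise, 0 fell, and 0 of 12 genes of nucleotide excision and mismatch repair passed. The shares over all genes were 0.126% rising and 0.183% falling.

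Of 18 tested genes on the p53 target list used here 3 rose and 0 fell, while 0.126% of all genes rose and 0.183% fell. Above 0 were 12 of the 18, and 3161 of all 8733 genes. The list's median log2 fold change was 0.13 beside -0.07 over all genes. Without scaling of the arrays 0 passed and the median was -0.04, beside -0.26 over all genes, and after quantile normalization 5 passed. The list held 35 genes, and 16 of them, Bax and Btg2 included, had no probe set of their own here, while the death receptor gene Fas had one that did not pass the filter on low signals. Ccng1, cyclin G1, which recruits phosphatase to Mdm2, had 467, 387, 505, 576 and 639 in DEN rats, against 221, 144, 165, 240 and 210 in controls. The groups were apart and the log2 fold change was 1.29 ± 0.15 (2.44-fold, adjusted p = 1.4e-11 in limma).

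Cdkn1a, the cyclin-dependent kinase inhibitor p21, rose in both of its probe sets. The brighter one had 762, 1487, 2149, 2315 and 1596 in DEN rats and 617, 1053, 913, 701 and 612 in controls (1.01 ± 0.23, adjusted p = 0.014 in limma). DEN rat 4048 lay within the control range, while the other 4 were above it. The second probe set gave 1.16 ± 0.25 (adjusted p = 0.0072). The brighter one lost its call without control rat 4001, and both did without control rat 4002 or DEN rat 4051, with adjusted p reaching 0.17 and 0.085.

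Mdm2, the ubiquitin ligase that degrades p53, had 185, 92.6, 314, 196 and 222 in DEN rats, against 81.3, 88.7, 79.5, 105 and 79.2 in controls. All DEN rats but 4049 were above every control, and the log2 fold change was 0.95 ± 0.23 (1.93-fold, adjusted p = 0.032 in limma). This call is near the threshold: it was lost on leaving out any 1 of the 10 rats except 4049 and 4005, with an adjusted p of up to 0.12. A dimmer Mdm2 probe set stood at 0.79 ± 0.35 without passing.

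Just past the threshold on the other side were Phlda3, an inhibitor of the kinase Akt, and Rps27l, a ribosomal protein paralog. Phlda3 had 310, 363, 635, 400 and 389 in DEN rats and 259, 223, 220, 186 and 269 in controls, without overlap (0.76 ± 0.20, adjusted p = 0.059). Rps27l stood at 0.67 ± 0.18 (adjusted p = 0.072). The other 13 targets ranged from -0.20 for the excision repair factor Xpc to 0.49 for the stress cytokine Gdf15. The growth arrest gene Gadd45a stood at 0.28 ± 0.32 and the polo-like kinase Plk2 at 0.34 ± 0.22.

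**Figure D2:**
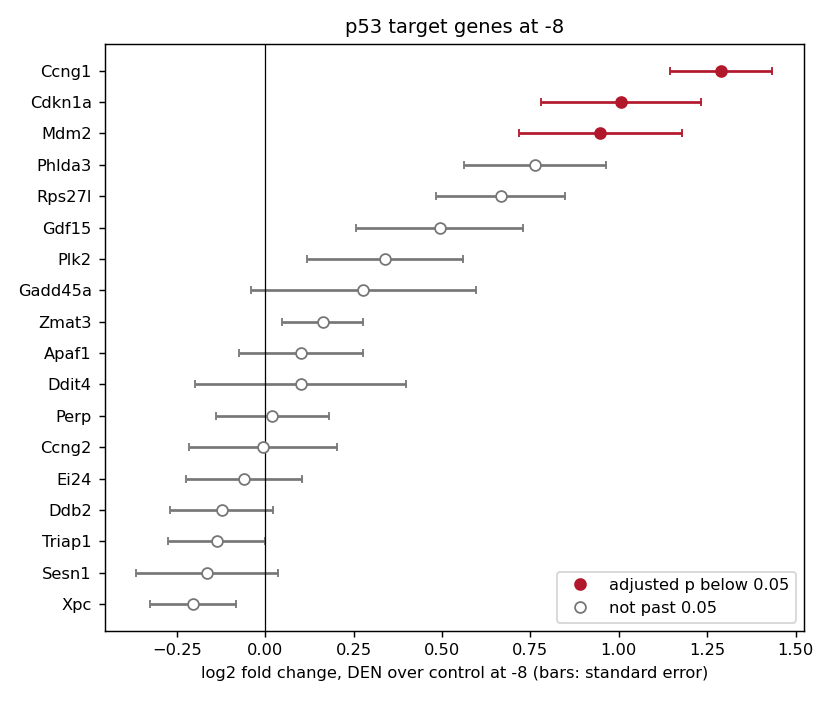
Log2 fold change (DEN over control at -8) of the 18 tested p53 target genes, 1 probe set a gene, with the standard error as bars. Filled red points are the 3 genes with an adjusted p below 0.05, Ccng1, Cdkn1a and Mdm2, and open grey points are the others, from -0.20 (Xpc) to 0.76 (Phlda3).

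The 250 bases before the RefSeq start of the 3 called p53 targets (GRCr8 build) are shown because they rose together. Capitals mark matches to the p53 half-site consensus, a palindrome searched on both strands.
Ccng1, chr10:25684877-25685126, minus strand: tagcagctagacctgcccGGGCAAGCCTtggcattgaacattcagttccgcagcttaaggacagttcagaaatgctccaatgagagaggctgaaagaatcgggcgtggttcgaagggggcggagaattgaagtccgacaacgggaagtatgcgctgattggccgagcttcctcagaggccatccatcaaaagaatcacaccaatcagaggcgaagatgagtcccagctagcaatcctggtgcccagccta
Cdkn1a, chr20:7150682-7150931, plus strand: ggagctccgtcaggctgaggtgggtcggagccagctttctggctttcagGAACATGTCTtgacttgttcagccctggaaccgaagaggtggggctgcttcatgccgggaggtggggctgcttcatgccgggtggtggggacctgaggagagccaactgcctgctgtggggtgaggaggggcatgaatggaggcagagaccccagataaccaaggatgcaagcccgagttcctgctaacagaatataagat
Mdm2, chr7:55200792-55201041, minus strand: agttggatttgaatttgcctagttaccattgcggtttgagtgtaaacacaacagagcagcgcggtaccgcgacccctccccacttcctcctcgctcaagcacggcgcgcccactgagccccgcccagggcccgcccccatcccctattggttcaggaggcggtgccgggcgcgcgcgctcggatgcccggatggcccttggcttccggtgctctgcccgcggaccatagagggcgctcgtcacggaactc
Ccng1 held 1 match, from 232 to 223 bases before the start, and Cdkn1a held 1, from 201 to 192 before it, and the letters were not found in this window of Mdm2. The search took 1 promoter a gene and left out bases beyond this window, so it cannot show that a gene lacks such a site. Such a match was in 6.56% of the 27457 RefSeq promoters. Of the 29 called genes with a promoter there, 2 of 11 that rose (Ccng1 and Cdkn1a) and 3 of 18 that fell (Ipmk, Rc3h1 and Gpr107) held one. The antioxidant response element core TGACNNNGC, also searched on both strands, was in 10.2% of all promoters and in 1 of the 11, Cdkn1a, and Ephx1 and Aldh1a1 had none in this window.

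Other increases were in genes outside these pathways. Lama5, the alpha-5 chain of basement membrane laminins, had 99.2, 113, 141, 145 and 85.2 in DEN rats, against 18.9, 14.1, 10.4, 11 and 12.9 in controls. The control signals lay under the offset of 25 added before taking logs, which therefore sets the size of the change. It was 1.86 ± 0.19 (adjusted p = 3.1e-13 in limma), 2.64 ± 0.33 with an offset of 6 and 0.93 ± 0.08 with 99. Vxn (vexin) rose by 1.52 ± 0.28 with controls equally dim, but DEN rat 4049, at 14.8, fell short of control rat 4002, at 44.8, whereas the other 4 DEN rats had 68.0 to 154. Retnla (a resistin-like secreted protein), Kcna2 (a voltage-gated potassium channel) and Obp1f (an odorant-binding lipocalin) rose by 0.89 ± 0.20, 0.87 ± 0.22 and 0.82 ± 0.19. Their signals were dim, with DEN means of 121, 110 and 126 and control means of 58.5, 51.7 and 60.5, and each lost its call on leaving out single rats, 4051 for all of them.

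Among the 23 probe sets called lower, 12 showed no overlap between the groups, beside 2.19% of all tested probe sets. The 23 had been picked for a difference between these same rats, which favours such separation. The decreases were smaller, with log2 fold changes from -1.09 to -0.42. Larp1, an RNA-binding protein of ribosomal protein mRNAs, had the largest, and it rested on 1 rat: DEN rats had 1438, 1545, 194, 1893 and 2012, and controls had 2146, 2458, 2927, 3003 and 1731. Without DEN rat 4050 the log2 fold change was -0.49 and the call was lost (adjusted p = 0.16), against -1.09 ± 0.23 with it, and the other 3 Larp1 probe sets stood between -0.30 and -0.20 without passing. Rnf144b, a ubiquitin ligase that was not on the p53 target list used here, fell by 1.06 ± 0.22 on the log2 scale (adjusted p = 0.0059 in limma). It had 669, 416, 526, 377 and 813 in DEN rats, against 1002, 704, 1080, 1709 and 1537 in controls, so that DEN rat 4052 lay above control rat 4003. The call was lost without DEN rat 4051, with an adjusted p of 0.077.

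Slc12a2, the sodium-potassium-chloride cotransporter NKCC1, had 197, 216, 203, 204 and 262 in DEN rats, against 507, 336, 549, 381 and 250 in controls (-0.79 ± 0.16, adjusted p = 0.0034 in limma). The DEN rats were close together, control rat 4001 lay among them, and the call was lost without control rat 4004 (adjusted p = 0.057). Il6st, the shared gp130 receptor subunit of the interleukin-6 family, had 702, 1332, 1846, 1088 and 2015 in DEN rats and 2830, 2470, 2639, 2161 and 1567 in controls (-0.80 ± 0.19, adjusted p = 0.025). Its other 2 probe sets pointed the same way without passing (-0.50 ± 0.15 and -0.75 ± 0.25), and the call was lost without any 1 of rats 4002, 4003, 4004, 4048 and 4051 (adjusted p up to 0.22). P2ry2, a receptor for extracellular nucleotides (-0.98 ± 0.25, adjusted p = 0.049), and Pdgfa, a platelet-derived growth factor chain (-0.70 ± 0.17, adjusted p = 0.030), were at the edge of the threshold. Egfr, the epidermal growth factor receptor, lay just outside it, with 190, 351, 460, 230 and 626 in DEN rats and 550, 1189, 988, 892 and 520 in controls (-1.15 ± 0.30, adjusted p = 0.055).

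Ctnnd1, the p120 catenin that holds cadherins at junctions, had 232, 315, 287, 294 and 288 in DEN rats, against 578, 478, 459, 416 and 430 in controls (-0.69 ± 0.16, adjusted p = 0.014 in limma). The groups were apart, but the call was lost without DEN rat 4048 or control rat 4002 (adjusted p up to 0.074). Bap1, a nuclear deubiquitinase and tumour suppressor, had 384, 327, 325, 351 and 292 in DEN rats and 494, 467, 439, 461 and 427 in controls (-0.42 ± 0.09, adjusted p = 0.0084). Vmac, a vimentin-type intermediate filament associated protein, stood at -0.77 ± 0.16 (adjusted p = 0.0039), also without overlap. Bap1 and Vmac both lost the call without DEN rat 4052, with adjusted p of 0.055 and 0.063. Gpr107 (a Golgi membrane protein), Rc3h1 (the mRNA-decay factor roquin), Foxn3 (a forkhead repressor), Irgm2 (an interferon-inducible GTPase), Ipmk (an inositol phosphate kinase), Fyco1 and Wdfy2 (proteins of endosome traffic), Srrm1 (a splicing coactivator) and Ensa (a regulator of phosphatase 2A) also fell, with log2 fold changes of -1.03 to -0.48. The groups overlapped for Rc3h1, Foxn3 and Irgm2. None of the further probe sets of these genes passed, with values of 0.05 for Rc3h1, 0.18 and 0.16 for Ensa, -0.45 for Foxn3 and -0.15 for Srrm1.

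The increases and decreases differed in how they fared in a fit of the 10 arrays alone, which gives up the spread shared with the other 28 groups. It called 11 probe sets, and among these were 8 of the 15 increases (the shared Abcb1 probe set, Aldh1a1, Lama5, Nhej1, Mgmt, Ccng1, Ephx1 and a probe set without a gene) and 0 of the 23 decreases. Leaving out single rats moved the total between 14, without DEN rat 4051, and 115, without DEN rat 4050. In 4 probe sets, those of Abcb1, Aldh1a1, Lama5 and Nhej1, the call was kept in every one of the 17 settings compared in the plot of calls kept. DEN rats differed among themselves over the 15 increases: rat 4049 was the lowest DEN rat for 7 of them, and rats 4050 and 4051 were the highest for 7 and 6.

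**Figure D3:**
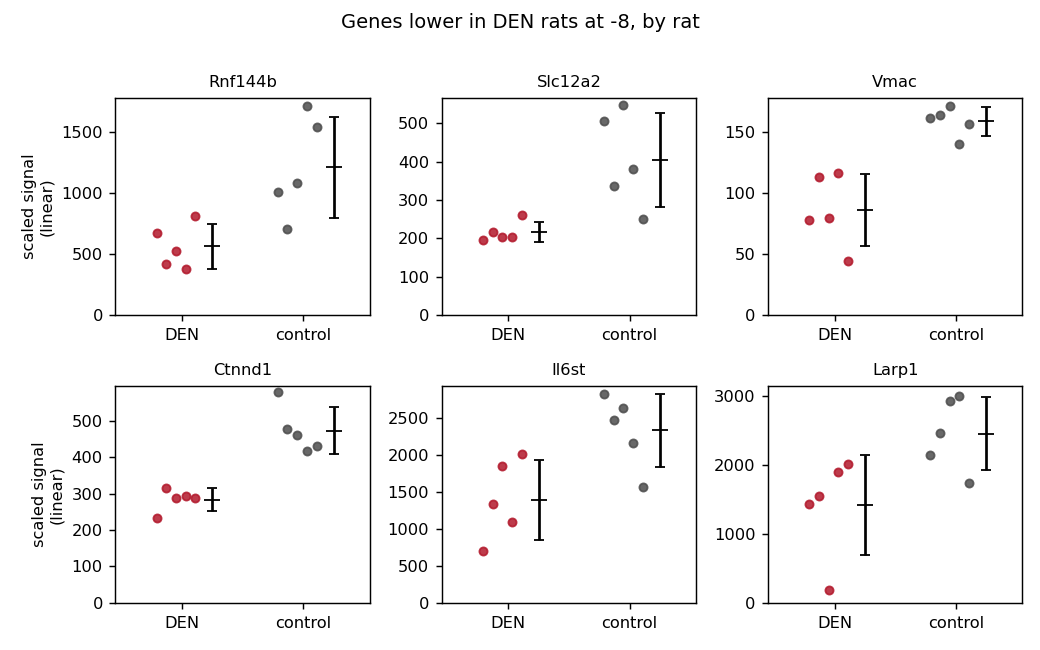
Scaled signal (linear, from 0) of each rat at -8 for 6 genes called lower, DEN rats in red and control rats in grey, with mean and SD of 5 rats in black. Vmac and Ctnnd1 show no overlap, and the Larp1 panel shows DEN rat 4050 at 194, far under the other 4 DEN rats.

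**Figure D4:**
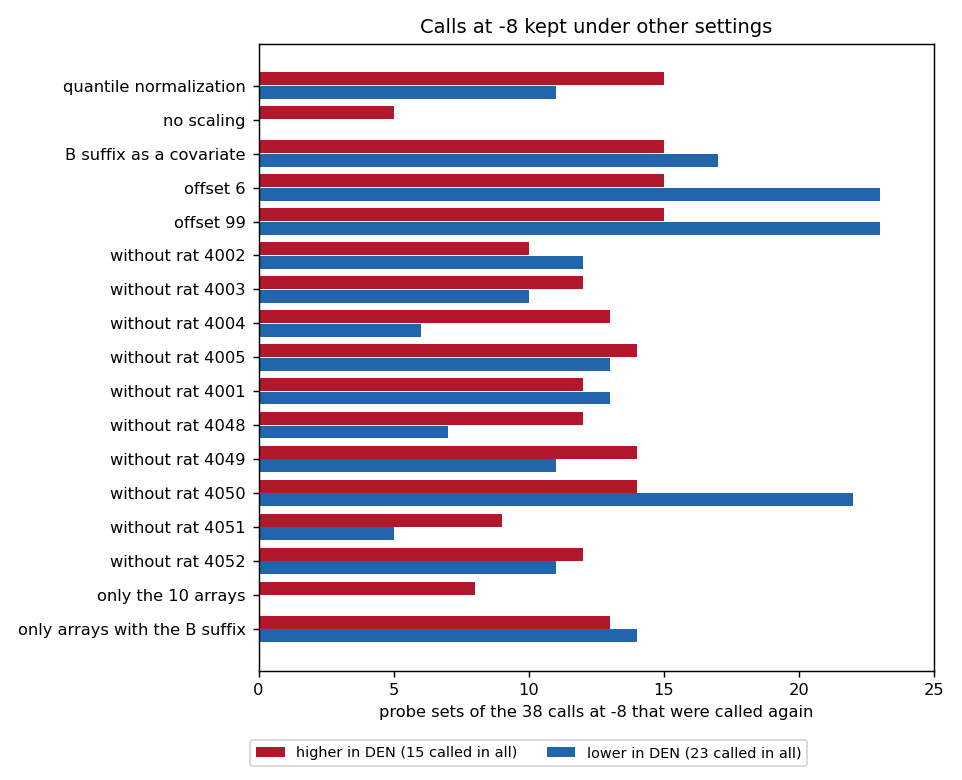
For each setting, how many of the 15 probe sets called higher (red) and of the 23 called lower (blue) were called again. The bars start at 0. With only the 10 arrays 8 higher and 0 lower calls were kept, and without rat 4051 9 and 5.

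Few or no genes passed at -8 in lists of gene groups that often accompany liver damage. Over all genes 0.126% rose and 0.183% fell, so a count of 0 in lists this short cannot show that a group was unchanged. Of 29 cell cycle genes 0 passed and the median log2 fold change was 0.11, and Ccnb2 (cyclin B2), Plk1 and Ccnd1 (cyclin D1) had the smallest p-values, at 0.60 ± 0.23, 0.65 ± 0.32 and 0.49 ± 0.24 (adjusted p of 0.25 or more). At an unadjusted p below 0.05 there were 3 higher and 0 lower, beside 2.54% and 9.96% of all genes. Unscaled, the cell cycle median was -0.05, beside -0.26 over all genes. Of 20 apoptosis regulators 0 passed, and the inflammatory caspase Casp1 (0.43 ± 0.16) led the list. Of 23 immediate early and growth genes 0 passed. Myc, a growth-promoting transcription factor, had 114, 139, 146, 170 and 53.5 in DEN rats and 54.4, 31.0, 8.46, 85 and 85.8 in controls (1.01 ± 0.36, adjusted p = 0.21). Jun stood at -0.57 ± 0.38, and its other probe sets at -0.42 ± 0.26 and -0.38 ± 0.28 did not pass either.

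Of 22 heat shock and unfolded protein response genes 0 passed, yet 21 lay below 0. At an unadjusted p below 0.05 there were 6 lower, beside 9.96% of all genes. Their median was -0.24 (-0.44 unscaled, -0.12 after quantile normalization), beside -0.07 over all genes (-0.26 unscaled). The chaperones Pdia4 (-0.49 ± 0.18) and Dnajb1 (-0.42 ± 0.17) had the list's smallest p-values. Of 12 circadian clock genes 0 passed and 10 lay below 0 (median -0.25), 3 of them at an unadjusted p below 0.05 (again beside 9.96% of all genes), with Clock at 202 ± 29.8 in DEN rats and 298 ± 38.9 in controls (SD, n = 5 each; -0.51 ± 0.14, adjusted p = 0.082). Nfil3, a repressor of the clock's output, stood at -0.56 ± 0.17 (adjusted p = 0.11), and both genes were without overlap. Time of day at sampling is not in the labels, and its part was not tested. Over all 8733 genes 3161 lay above 0, so most lists leaned below it.

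Of 27 genes listed for the acute phase 1 passed, the receptor subunit Il6st, which fell, and 17 lay above 0. After quantile normalization 0 of the 27 passed. In each of the lists of interferon response genes (26), growth hormone and sex dependent genes (21), fatty acid oxidation genes (23), lipid and cholesterol synthesis genes (22) and periportal genes (14) 0 passed. Markers of rat liver tumours and preneoplastic foci did not pass either (0 of 16). Gstp1, the placental glutathione S-transferase of foci, stood at 188 ± 83.2 in DEN rats and 227 ± 30.6 in controls (SD, n = 5 each), and the fetal protein Afp at 421 ± 87.9 and 445 ± 42.8.

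No cell type marker was called at -8, where 0.126% of all genes rose and 0.183% fell. A count of 0 is near those shares for lists of this size. In lists for hepatocytes, macrophages, T and NK cells, neutrophils, stellate cells, endothelium, cholangiocytes, erythroid, pancreatic acinar and mast cells 0 of 87 tested genes passed. The macrophage list summed to 5844 to 9399 in DEN rats and 6760 to 9043 in controls, and the stellate cell list to 4052 to 5594 in DEN rats and 4054 to 4936 in controls. The sums of the mast cell list came closest to a difference, 184 to 320 in DEN rats and 169 to 207 in controls (exact permutation test, two-sided, p = 0.0397, 0.397 after Benjamini-Hochberg over 10 lists). No B cell marker passed the filter on low signals. In whole liver fewer cells of a type and less RNA per cell cannot be told apart.

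At later times few of these genes were called. Of the 15 probe sets higher at -8, 14 were above 0 at 5j, 13 at 1m, 8 at 3m, 7 at 9m and 3 at 12m, and their median log2 fold change was 0.34, 0.13, 0.00, -0.08 and -0.16. Of all probe sets 38.9% were above 0 at 5j and 57.2% at 12m. At 5j, 5 probe sets were called in all (0.0403%), and 2 of them were increases from -8: the shared Abcb1 probe set (1.21 ± 0.24, adjusted p = 0.0071 in limma) and Nhej1 (0.73 ± 0.16, adjusted p = 0.027). Nhej1 averaged 110 ± 25.2 in DEN rats at 5j and 57.6 in their controls, compared with 196 ± 19.9 in DEN rats at -8. Of the 38 calls 0 were called in DEN against control rats at 1m, 3m, 9m or 12m, when limma called 0, 1, 0 and 0 probe sets in all (548, 778, 458 and 332 at an unadjusted p below 0.05). Of the 23 decreases 19 lay below 0 at 5j, at 1m and at 3m, 17 at 9m and 10 at 12m, while 61.1%, 51.7%, 55.9%, 47.0% and 42.8% of all probe sets did.

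The difference between the DEN effects at -8 and 5j, which share no rats, was tested in the same fit and passed for 4 probe sets (0.0323%). These were the shared Abcb1 probe set (larger at -8 by 1.78 ± 0.34 on the log2 scale, adjusted p = 0.0052 in limma), Lama5 (1.53 ± 0.27, 0.0016), Ccng1 (1.02 ± 0.21, 0.0086) and Aldh1a1 (1.88 ± 0.42, 0.046). Nhej1 did not pass this test (0.73 ± 0.23). Against the mean DEN effect over 5j to 12m, 12 probe sets passed (0.0968%), all of them called at -8. This difference, like that from 5j, contains the effect at -8 itself, from the same rats. Probe sets extreme at -8 are therefore favoured, and the overlap with the calls at -8 is not a separate result. Mgmt (1.23 ± 0.19, adjusted p = 3.3e-06), Nhej1 (1.35 ± 0.18, 8.9e-09), Ephx1 (0.85 ± 0.16, 0.00053), Vxn, Obp1f and Retnla were among the 11 increases, and Rnf144b (-1.06 ± 0.24, 0.032) was the 1 decrease. Cdkn1a and Mdm2 did not pass, with differences of 1.01 (adjusted p = 0.076) and 0.88 (adjusted p = 0.22).

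In rats that also carried the Clo label, DEN-Clo against Clo called 10 probe sets at 5j (0.0807%), and 0 of them had been called at -8. Of the 15 increases 13 lay above 0 there, beside 51.4% of all probe sets, and the highest was the brighter Cdkn1a probe set at 0.80 ± 0.23 (adjusted p = 0.16). At 1m the Cdkn1a probe sets stood at 0.58 ± 0.23 and 0.75 ± 0.25, without passing. Mgmt stood at 0.47 ± 0.17 at 5j and at 0.48 ± 0.17 at 1m, Aldh1a1 at 0.39 ± 0.29 at 5j, and the shared Abcb1 probe set at 0.21 ± 0.24. Of the 23 decreases 9 lay below 0 at 5j, 3 at 1m, 5 at 3m, 14 at 9m and 5 at 12m, beside 48.6%, 37.6%, 41.1%, 61.8% and 49.0% of all probe sets. Whether these effects differ from those in rats without clofibric acid was not tested. Cd14, a macrophage receptor for endotoxin, fell at 5j in both arms (-1.30 ± 0.22 in DEN against control rats and -1.24 ± 0.22 in DEN-Clo against Clo rats), and at -8 it stood at -0.54 ± 0.22 (adjusted p = 0.29).

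Of 12393 probe sets, DEN-Clo against Clo called 0 at 1m, 170 at 3m, 5 at 9m and 0 at 12m in limma. At an unadjusted p below 0.05 there were 1921, 1678, 722 and 533. Of the 38 probe sets called at -8, 1 was called in DEN-Clo against Clo rats at a later time, the dimmer Cdkn1a probe set at 9m, and it fell there. Its signal was 288, 186, 119.6, 88.3 and 119.5 in DEN-Clo rats 4102, 4103, 4104, 4105 and 4115, against 441, 465, 312, 342 and 377 in Clo rats 4132 to 4136, without overlap. The log2 fold change was -1.24 ± 0.25 (adjusted p = 0.014 in limma, 1 of 5 probe sets called in that comparison, 0.0403%), whereas at -8 it was 1.16 ± 0.25. The brighter probe set stood at -0.80 ± 0.23 (adjusted p = 0.46). The call was lost without scaling (adjusted p = 0.83), in a fit of these groups alone (0.06), and without any 1 of rats 4104, 4105, 4115, 4132 and 4133 (up to 0.27). In DEN against control rats the same probe set stood at -0.60 ± 0.25 at 9m and -0.73 ± 0.25 at 12m, without passing, and the difference between the effects at -8 and 9m was not tested.

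**Figure D5:**
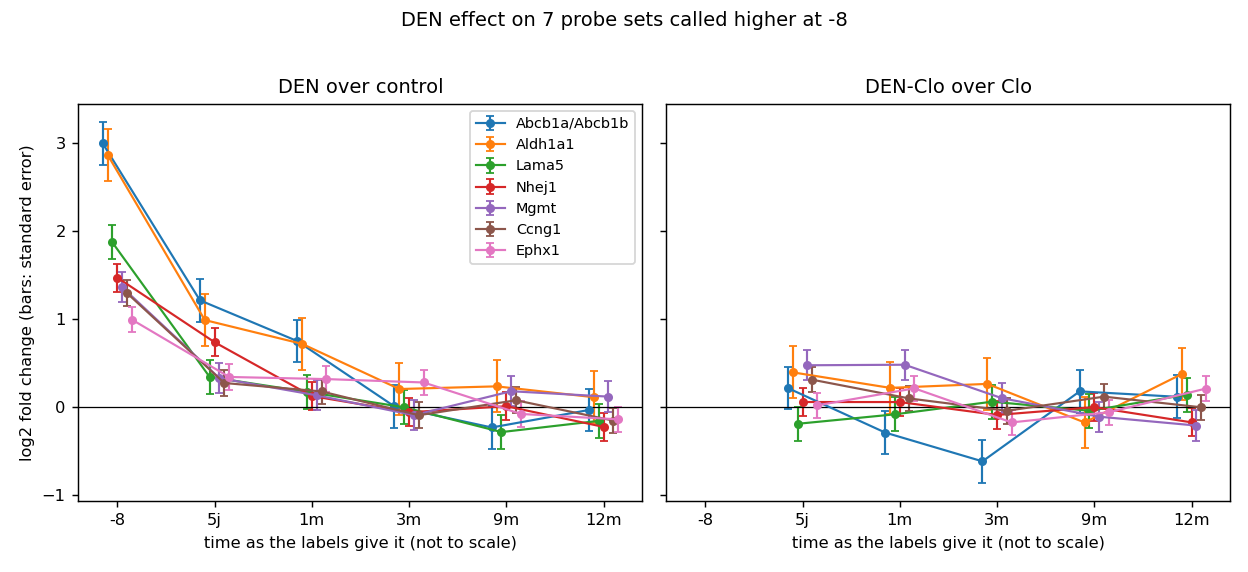
Log2 fold change with standard error of 7 probe sets called higher at -8, over the times of the labels (evenly spaced, not to scale), for DEN over control rats (left) and DEN-Clo over Clo rats (right, which has no -8 group). On the left the values run from 0.99 to 2.99 at -8 and from 0.27 to 1.21 at 5j, and on the right none of these 7 exceeds 0.47 at 5j. The Cdkn1a probe sets are not drawn.

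Among the 30 groups the DEN rats of -8 held the highest mean for 11 of the 15 increases. The called probe sets had been picked for a difference between the groups of -8, which favours extreme ranks for these groups. Ranks over all tested probe sets were not counted, so the rank counts here only describe the levels. For the shared Abcb1 probe set the next groups were control and DEN rats at 12m, at 414 ± 103 and 405 ± 127, against 810 ± 118 in DEN rats at -8 (SD, n = 5 each). Nhej1 likewise stood at 129 ± 23.7 in control rats at 12m. Aldh1a1 was the exception among the largest increases: at 2585 ± 561 the DEN rats of -8 ranked 7th, with DEN-Clo rats at 5j at 4294 and control rats at 12m at 2714. The control rats of -8 held the lowest mean of the 30 groups for Aldh1a1, Nhej1, Mdm2, Retnla and Kcna2. Of the 23 decreases the DEN rats of -8 held the lowest mean for 10, among them Larp1, Ipmk, Vmac, Pdgfa and Srrm1. The control rats of -8 held the highest mean of the 30 groups for 8 of the 23: Bap1, Ensa, Wdfy2, Ipmk, Ctnnd1, Slc12a2, Rc3h1 and a probe set without a gene.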

How the data were processed

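Total RNA of rat liver sections was measured on Affymetrix arrays, 1 array a rat in the sections used. The deposited values are intensity on a linear scale, made by the authors with MAS5 per the submitters' processing notes, with the version, scaling target, scanner steps and genome build not given in the sources used here. How many arrays there are limits the precision, and no counts underlie the values. The members are arrays taken by their group labels, and the choice of this comparison and of the gene lists was made with earlier results of these data known.

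Each array was scaled to the median of all array medians, 99.35 (array medians ran from 25.35 to 187.2), which hides any shift common to most genes. Adding 25 before log2 understates folds of dim genes. A probe set was kept if above the array's 40th percentile on 3 or more arrays, leaving 12393 probe sets and 8733 genes. Of 15922 probe sets 12783 had 1 gene symbol, 312 several and 2827 none, from the platform's dated annotation updated through RefSeq (GRCr8), and the probe set with the highest mean stood for a gene in lists. A limma (3.58.1, R 4.3.3) fit with a mean per group over 148 arrays, 118 residual degrees of freedom, gave moderated two-sided tests with a variance trend and Benjamini-Hochberg adjustment over all probe sets, with 0.05 as the threshold. The code was first tested on simulated data.

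Named genes were those called at -8, up to 4 of each list with the smallest p, all p53 targets and a panel of marker genes, leaving out some of unknown function. Further probe sets of a named gene are given as values beside it. Alternatives were other offsets, no scaling, quantile normalization, other filters, the B suffix as a covariate or as a subset, fits of the compared groups alone, weighted arrays, a 2-fold minimum and leaving out single rats. Promoters are from RefSeq.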

Additional observations from a re-analysis of the deposited data

Results flagged for a closer look

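In 6 of 76 sets of 5 rats (38 called probe sets, 2 groups), 1 rat stood far from the other 4 on the log2 scale, where chance gives about 1 in 20. Among DEN rats, rat 4050 had a Larp1 signal of 193.7, against 1438 to 2012 in the others, and a Foxn3 signal of 508.8, against 269.0 to 322.9. Among controls, rat 4002 had a Vxn signal of 44.77, against 3.02 to 8.39 in the others, and a signal of 164.1, against 71.8 to 92.0, in the 1 higher probe set without a gene. Control rat 4005 had a Nhej1 signal of 20.82, against 59.5 to 74.4. Control rat 4001 had a Rc3h1 signal of 163.5, against 258 to 302.

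The DEN effect at -8 was larger than that at 5j, by the test of the difference in limma, for the shared Abcb1 probe set (1.7831 on the log2 scale), Lama5 (1.5277), Ccng1 (1.0212) and Aldh1a1 (1.8784). It differed from the mean effect at 5j, 1m, 3m, 9m and 12m for 12 probe sets. The difference was 2.6549 for the shared Abcb1 probe set, 1.8555 for Lama5, 1.2383 for Ccng1, 1.3535 for Nhej1, 2.4151 for Aldh1a1 and 1.2282 for Mgmt. It was 0.8494 for Ephx1, 1.141 for the higher probe set without a gene, 1.3881 for Vxn, 0.904 for Obp1f, 0.9462 for Retnla and -1.0606 for Rnf144b.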

How the results depend on the processing

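Calls at -8 numbered 38, and between 32 and 54 with either other offset, quantile normalization, the B suffix as a covariate or only arrays with it, no filter or one at the 70th percentile. They numbered 5 without scaling, 11 with only the groups of the contrast, 150 with array weights (28 higher, 122 lower), 13 with a 2-fold limit and 24 without DEN rat 4049 and control rat 4002, a choice made after seeing the data. Single rats left out gave 14 to 115, with 24 without control rat 4003, 20 without control rat 4004, 24 without DEN rat 4048, 115 without DEN rat 4050 and 14 without DEN rat 4051. The cause of these shifts was not tested. The fall of Cdkn1a in DEN-Clo rats at 9m was recomputed in the same settings, except B arrays alone and the 2-fold limit, a choice made after seeing the data. No called fold change changed sign in any of these settings. Without scaling the median log2 fold change over all genes was -0.26, against -0.07 with it.

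The difference from 5j was called for 4 probe sets, but for 0 without scaling, 7 after quantile normalization, 1 with only its own groups, 2 with only B arrays and 2 to 5 without single rats (2 without control rat 4007 of 5j or 4003 of -8). The difference from the later mean was called for 12, but for 5 without scaling, 7 with the filter at the 70th percentile, 21 with array weights and 8 to 14 without single rats, and B arrays alone could not be fitted. DEN at 5j had 5 calls, but 0 without scaling, 3 with the stricter filter, 1 with only its groups, 3 with only B arrays, 3 with the 2-fold limit and 3 to 7 without single rats (3 without 4007, 4053 or 4057). DEN-Clo against Clo at 5j had 10 calls, but 5 with an offset of 6, 0 without scaling, 16 after quantile normalization, 0 with only its groups, 2 with only B arrays, 5 with the 2-fold limit and 1 to 35 without single rats (35 without 4121, 28 without 4088). Beside the counts of 0 from limma, 222 (difference from 5j), 164 (DEN at 5j), 265 (DEN-Clo, no scaling) and 626 (DEN-Clo, only its groups) had an unadjusted p below 0.05. No paired analysis was possible because the DEN and control groups at -8 share no rat number.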

Other observations

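Of the 6 called probe sets without a gene name, 1 rose at -8 (235 ± 63.8 in DEN rats and 97.3 ± 38.2 in controls, SD, n = 5 each), and the other 5 were lower in DEN rats, with log2 fold changes from -0.73 to -0.44.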
